A study of Mus musculus with 42 samples.

Results

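Genes of the inflammasome pathway were followed in mouse liver RNA, 10 in all, chosen by name from the 54446 genes of the count table through their Ensembl identifiers. They are the sensors Nlrp3, Aim2 and Nlrc4, the NLRP3 partners Nek7 and Txnip, the adaptor Pycard, the caspases Casp1, Casp4 and Casp8, and the pore-forming gasdermin Gsdmd. All 10 were found, and all 10 had enough counts to be tested. Livers came from 42 female APOE*3-Leiden mice, which carry the human APOE*3-Leiden transgene, with 1 library per mouse. A reference group of 10 mice stayed on maintenance chow. The other groups of 16 mice each, aged 8 to 14 weeks at the start, received a Western-type diet (WTD) with 15% cocoa butter, 40.5% sucrose and 1% cholesterol, first for a run-in of 3 weeks and then for 32 weeks, with 0.05% sodium cholate added from week 22. In the WTD + atorvastatin group this diet also held atorvastatin, at 3.0 mg/kg/day and, from week 5, at 4.5 mg/kg/day. All groups carry the transgene, so none is a wild-type control, and both WTD groups received cholate, so its part cannot be told apart from that of the rest of the diet.

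An inflammasome is a protein platform that forms when a sensor in the cytosol meets a sign of infection or damage, such as a crystal, foreign DNA or a bacterial protein. The sensor recruits the adaptor ASC, encoded by Pycard, which gathers caspase-1, and this protease then matures interleukin-1 beta and interleukin-18 and cuts gasdermin D into a fragment that opens pores in the membrane. Much of this happens after translation, so transcript levels show how much of each part can be made and not whether the platform is active. In the liver the pathway is best known in Kupffer cells and recruited macrophages, and cholesterol crystals are among the triggers of NLRP3.

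Levels were given as CPM, the counts per 1000000 counted read pairs after scaling by TMM, and between genes only as CPM per kb of exon. By that length-corrected level Txnip was the highest in each group, with a median of 30.8 CPM per kb on chow, 38.2 on WTD and 34.3 on WTD + atorvastatin. Gsdmd followed at 20.3, 25.8 and 25.1 CPM per kb, and Casp8 was the next at 14.2, 14.6 and 15.7. Nek7 stood at 6.43, 7.94 and 7.41 CPM per kb. Nlrc4 was the lowest in each group, at 0.302, 0.666 and 0.694 CPM per kb, and Nlrp3 was low as well, at 0.511, 1.44 and 1.43. On chow the ranges of every pair of neighbours in this order overlapped between mice. Such ranges compare different mice, so they do not show whether the order held within each mouse, which was not tested. On WTD only Gsdmd and Casp8 were neighbours whose ranges did not overlap. With atorvastatin the ranges of Gsdmd and Casp8, of Casp8 and Nek7, and of Casp1 and Aim2 did not overlap.

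**Figure D1:**
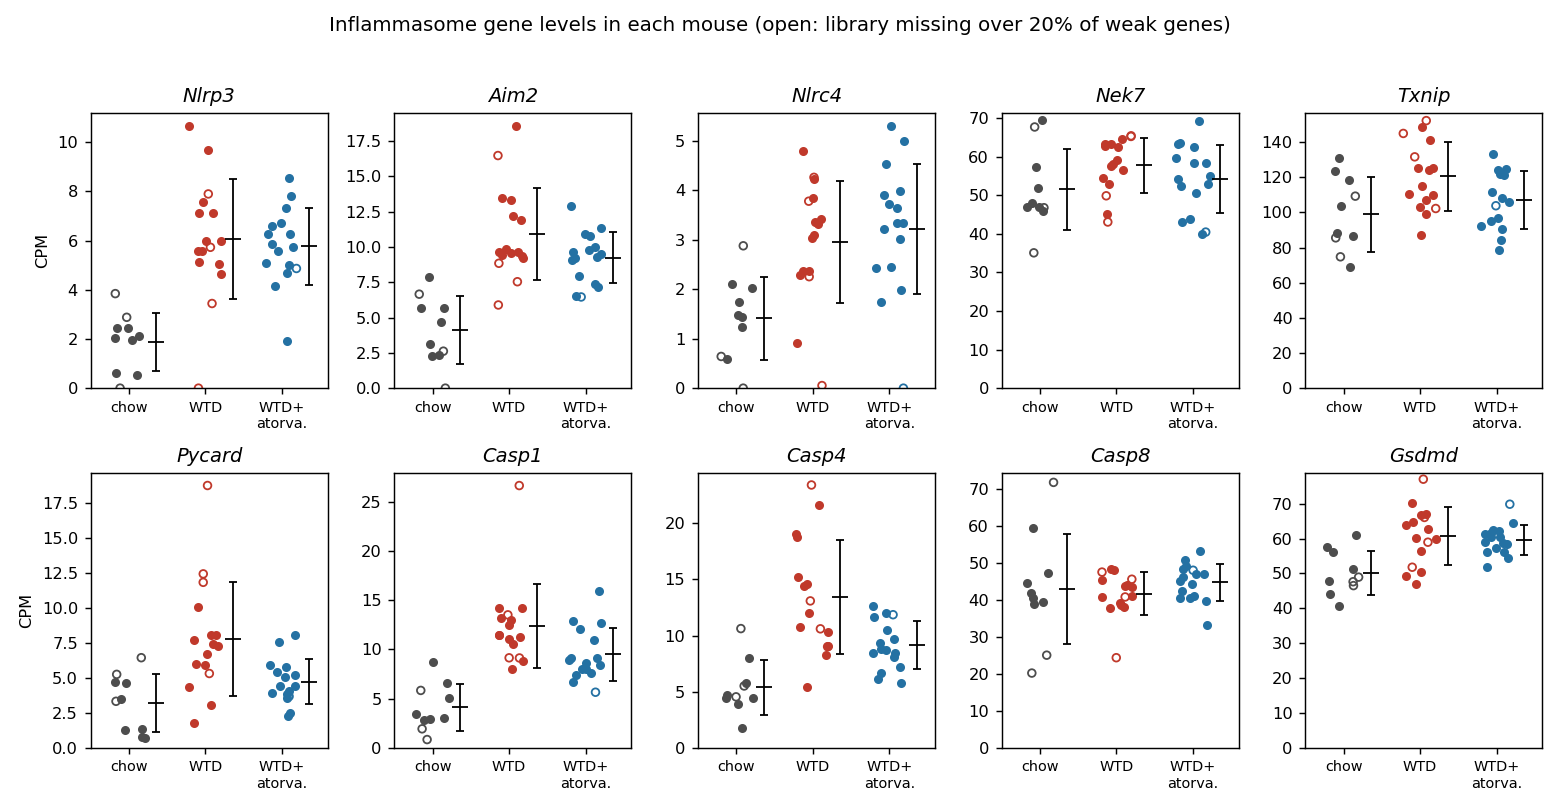
TMM-scaled CPM (y axis, linear from 0) of the 10 genes in each of the 42 mice, by group, with the mean and SD as a bar beside the points; open points are the 8 libraries that missed over 20% of weakly expressed genes. Nlrp3, Aim2 and Casp1 lie higher in nearly all mice of the untreated WTD group than on chow, with medians of 5.85, 9.61 and 11.5 CPM there. Casp8 and Nek7 overlap widely between groups.

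Counted read pairs on genes ranged from 15661381 to 36224054 per mouse. Not all libraries caught the weakly expressed genes equally well. Among genes at 1 to 2 CPM in a mouse's own group, between 0% and 59.7% had no count at all. This share was over 20% in 8 libraries, 3 from chow, 4 from WTD and 1 from WTD + atorvastatin mice. In such libraries a value of 0, or an unusually high one, of a weak gene such as Nlrp3 or Nlrc4 is less reliable, and values without these libraries are given where they change a call. The libraries were strand-specific. Txnip lies within the span of the antisense gene Gm15441 (GRCm38, chr3:96555765-96566801), and 606 of its 3123 exon bases are shared with exons of that gene. Txnip had 99365 counts over all mice and Gm15441 had 523, which does not by itself show that strand was kept. Of the Pycard exon bases, 12.8% lie inside the opposite-strand gene Gm45205, which had 26 counts.

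The genes lie apart in the GRCm38 genome except for Casp1 (chr9:5298517-5307265) and Casp4 (chr9:5308828-5336783), which are neighbours on the plus strand. Promoters of 300 bases, from 250 before to 50 after the start, were taken from RefSeq (GRCm38.p6), where 9 of the 10 genes had an entry and Gsdmd had none. They were searched on both strands for 7 short motifs, and 5 promoters are shown. Those of Aim2, Pycard, Casp1 and Casp4 belong to genes that differed between the diets, and that of Txnip held the rarest match. Nlrp3 also differed between the diets, and its 2 listed promoters are not printed. Capitals mark the matches. They are GAGGAA, the core bound by the myeloid factor PU.1 (TTCCTC when read on the other strand), in Aim2, Pycard and Casp1, and the E-box CACGTG in Casp1. In Casp4 they are an NF-kappaB motif, searched as GGG, any 2 bases and TTTCC, and in Txnip a carbohydrate response element, searched as CACGAG, any 5 bases and CACGAG.
Aim2 (chr1:173420354-173420653, plus strand): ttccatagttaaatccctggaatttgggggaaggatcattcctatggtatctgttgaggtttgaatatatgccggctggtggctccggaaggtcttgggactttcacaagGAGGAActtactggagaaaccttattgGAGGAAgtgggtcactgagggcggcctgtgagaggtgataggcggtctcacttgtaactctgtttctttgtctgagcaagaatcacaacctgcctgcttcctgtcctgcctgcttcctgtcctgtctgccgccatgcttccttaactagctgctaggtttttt
Pycard (chr7:127993818-127994117, minus strand): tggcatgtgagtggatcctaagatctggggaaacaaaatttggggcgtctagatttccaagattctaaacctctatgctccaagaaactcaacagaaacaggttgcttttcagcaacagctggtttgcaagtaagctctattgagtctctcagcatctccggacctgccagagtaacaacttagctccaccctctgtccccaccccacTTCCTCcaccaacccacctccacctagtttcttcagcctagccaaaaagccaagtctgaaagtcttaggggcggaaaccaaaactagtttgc
Casp1 (chr9:5298267-5298566, plus strand): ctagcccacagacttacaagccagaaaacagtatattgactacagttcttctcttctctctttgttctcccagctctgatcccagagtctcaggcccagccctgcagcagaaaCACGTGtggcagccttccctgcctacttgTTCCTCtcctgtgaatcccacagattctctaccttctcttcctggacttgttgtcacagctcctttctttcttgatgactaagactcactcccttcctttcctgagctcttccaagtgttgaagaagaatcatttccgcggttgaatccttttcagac
Casp4 (chr9:5308599-5308898, plus strand): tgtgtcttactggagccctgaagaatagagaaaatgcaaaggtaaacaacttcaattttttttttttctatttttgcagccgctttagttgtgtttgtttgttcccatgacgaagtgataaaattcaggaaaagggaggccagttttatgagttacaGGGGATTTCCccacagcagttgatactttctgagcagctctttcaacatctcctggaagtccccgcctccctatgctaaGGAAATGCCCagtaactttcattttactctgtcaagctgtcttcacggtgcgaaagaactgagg
Txnip (chr3:96557707-96558006, plus strand): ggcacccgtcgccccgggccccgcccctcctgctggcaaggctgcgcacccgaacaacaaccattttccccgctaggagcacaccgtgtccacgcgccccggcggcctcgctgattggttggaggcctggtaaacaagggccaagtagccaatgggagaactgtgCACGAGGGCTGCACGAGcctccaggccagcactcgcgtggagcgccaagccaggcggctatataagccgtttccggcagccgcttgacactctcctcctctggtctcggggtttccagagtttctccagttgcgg
Casp4 was the 1 gene of the 9 searched with an NF-kappaB match, which 1.63% of all 32851 promoters hold, and it had 2 of them. GAGGAA was found in 4 genes, Aim2, Casp1, Pycard and 1 of the 2 listed starts of Nlrp3, and it is common, standing in 28.3% of all promoters. CACGTG stood in 7.15% of promoters. The Txnip element began 85 bases before the start, and no other promoter of the 32851 held these letters (0.00304%), but this motif was chosen after the promoter had been read. The interferon-stimulated response element (GAAA, any 2 bases and GAAA, in 3.44% of promoters), the gamma-activated site (TTC, any 3 bases and GAA, 8.3%) and the AP-1 motif TGANTCA (7.81%) were found in none of the 9 genes, which says only that these letters are absent from these windows. A match is a description of sequence and not evidence of binding.

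WTD feeding was first compared with chow. On WTD 6 genes were higher, among them the sensors Nlrp3 and Aim2, the adaptor Pycard and the inflammatory caspases Casp1 and Casp4, each by about 2.45-fold to 3.22-fold, and Gsdmd by 1.21-fold. None was lower. The test was edgeR's quasi-likelihood test, with p adjusted over 15574 genes by the Benjamini-Hochberg method and a threshold of 0.01. It called 6 of the 10 genes, where 33.5% of all tested genes passed in either direction and 17.5% were higher. The median log2 fold change was 1.18 for the 10 genes and 0.03 for all tested genes. In bulk RNA a change in the number of cells of a type and a change in RNA per cell cannot be told apart.

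Among the sensors, Nlrp3, which responds to crystals and other danger signals, had a lowest, median and highest level of 0, 2.07 and 3.84 CPM on chow and of 0, 5.85 and 10.6 CPM on WTD. The WTD mouse at 0 had a library that missed many weak genes, and 14 of 16 WTD mice were above the highest chow mouse. The log2 fold change was 1.69 (SE 0.40, adjusted p = 0.00046). Aim2, a sensor of double-stranded DNA, ranged from 0 over 3.90 to 7.89 CPM on chow and from 5.89 over 9.61 to 18.5 CPM on WTD. Again 14 of 16 WTD mice exceeded all chow mice, and the log2 fold change was 1.41 (SE 0.28, adjusted p = 3.9e-05). Without the 8 sparse libraries neither Nlrp3 nor Aim2 overlapped between the remaining 12 WTD and 7 chow mice, which held for 10.7% of tested genes. The ranges were then 0.515 to 2.46 against 4.62 to 10.6 CPM for Nlrp3, and 2.25 to 7.89 against 9.23 to 18.5 CPM for Aim2. With all mice no gene of the 10 was free of overlap, against 5.83% of tested genes.

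Nlrc4, which pairs with NAIP proteins to sense bacterial flagellin and secretion systems, was the weakest of the sensors. Its levels were 0, 1.45 and 2.87 CPM on chow and 0.0521, 3.20 and 4.79 CPM on WTD. The lowest mouse of each group had a sparse library, and 10 of 16 WTD mice were above every chow mouse. A log2 fold change of 1.07 (SE 0.47, 95% interval 0.11 to 2.02) did not pass (adjusted p = 0.063). It passed without the 8 sparse libraries, where the value was 1.02 (adjusted p = 0.0028), and adjusted p ranged from 0.0022 to 0.11 over 11 alternatives.

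Pycard encodes ASC, the adaptor that links NLRP3 and AIM2 to caspase-1. It ranged from 0.664 over 3.40 to 6.45 CPM on chow and from 1.78 over 7.38 to 18.8 CPM on WTD, with 10 of 16 WTD mice above the chow range and others well inside it. Pycard had a log2 fold change of 1.29 (SE 0.32, adjusted p = 0.00074).

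Casp1, the protease that matures interleukin-1 beta, showed the clearest separation of the caspases. It ranged from 0.830 over 3.17 to 8.69 CPM on chow and from 8.05 over 11.5 to 26.6 CPM on WTD, so that 15 of 16 WTD mice stood above the highest chow mouse. Casp1 had a log2 fold change of 1.60 (SE 0.23, adjusted p = 1.2e-07). Casp4, also known as caspase-11 in mice, senses bacterial lipopolysaccharide inside the cell and cuts gasdermin D without caspase-1. It ranged from 1.79 over 4.60 to 10.6 CPM on chow and from 5.37 over 12.5 to 23.4 CPM on WTD, with all 16 WTD mice above the chow median and 10 above its highest mouse. Its log2 fold change was 1.32 (SE 0.21, adjusted p = 9.2e-07). Casp8, the initiator caspase of death receptors, had medians of 41.2 CPM on chow and 42.3 CPM on WTD. Chow mice were the more scattered, from 20.2 to 71.7 CPM against 24.3 to 48.2 CPM, and the highest and the 2 lowest chow values came from sparse libraries. The log2 fold change of Casp8 was -0.04, with a 95% interval of -0.28 to 0.19, and its sign depended on the mice and the filter.

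Gsdmd, the substrate that forms the pores of pyroptosis, ranged from 40.7 over 48.3 to 60.9 CPM on chow and from 46.9 over 61.4 to 77.0 CPM on WTD. Of 16 WTD mice 15 lay above the chow median and 8 above the chow range. The log2 fold change was small but narrow at 0.28 (SE 0.07, adjusted p = 0.0015), and it did not pass without the sparse libraries (0.23, adjusted p = 0.018) or with limma-voom (0.19, adjusted p = 0.028), within a range of 6.3e-05 to 0.028 over 12 alternatives. Nek7, a kinase whose binding helps NLRP3 to assemble, ranged from 35.1 over 47.5 to 69.5 CPM on chow and from 43.1 over 58.6 to 65.4 CPM on WTD, with a log2 fold change of 0.16 that did not pass (95% interval -0.03 to 0.35). Txnip, a thioredoxin-binding protein that is induced by glucose and can bind NLRP3, ranged from 68.7 over 96.05 to 131 CPM on chow and from 87.3 over 119 to 152 CPM on WTD. Its log2 fold change of 0.28 (SE 0.10) did not pass (adjusted p = 0.015). It passed with RLE normalization (0.32, adjusted p = 0.0065), with DESeq2 (0.32, adjusted p = 0.0062) and with at least 10 counts in every mouse (0.34, adjusted p = 0.0038), but not with upper-quartile normalization (0.29, adjusted p = 0.016). Without the sparse libraries its value was 0.18 (adjusted p = 0.2), with adjusted p from 0.0038 to 0.2 over 12 alternatives.

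**Figure D2:**
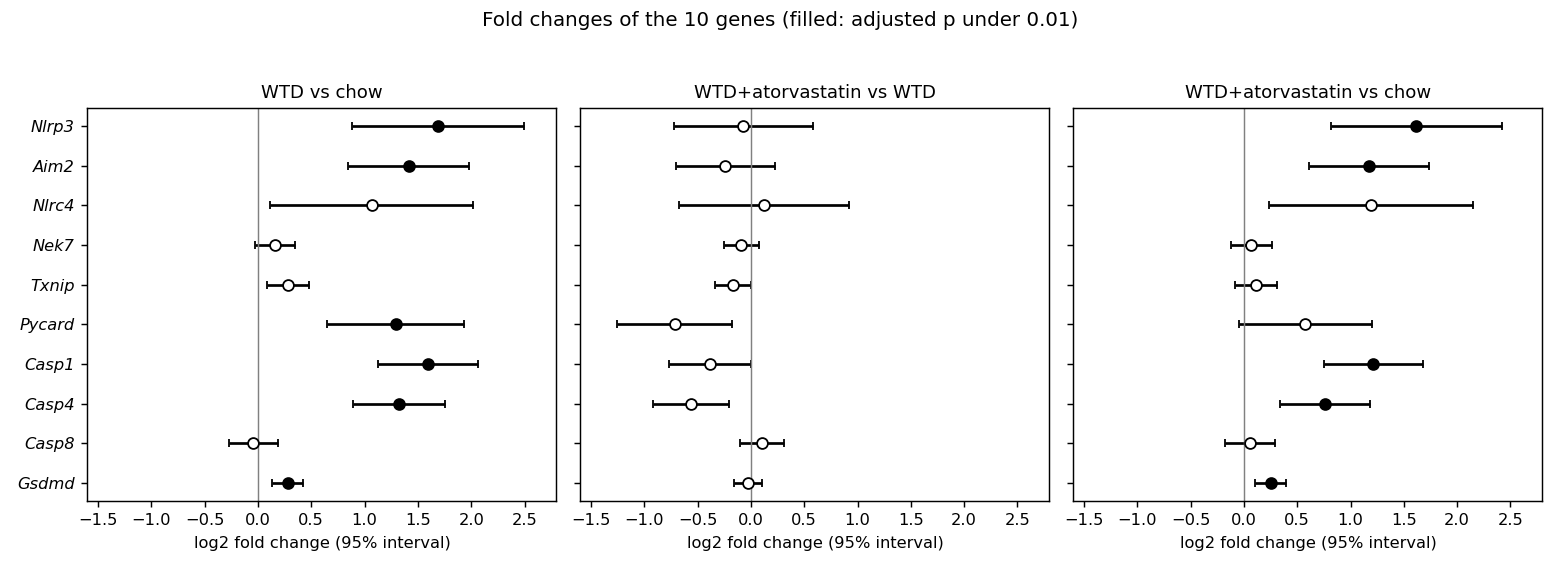
Log2 fold changes (x axis) of the 10 genes with 95% intervals in the 3 comparisons, from edgeR's quasi-likelihood model; filled points have an adjusted p under 0.01. For WTD vs chow 6 points are filled, 0 for WTD + atorvastatin vs WTD and 5 for WTD + atorvastatin vs chow.

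Markers of immune and other liver cells differed between the diets as well. All 7 tested macrophage markers were higher on WTD, with a median log2 fold change of 2.56, and the summed level of the 8 listed markers was 211 to 316 CPM on chow, 1154 to 2568 CPM on WTD and 910 to 1824 CPM with atorvastatin, with Itgam at 0 in all mice. Of the neutrophil markers 3 of 4 tested were higher on WTD, with a summed level of 6.78 to 29.1 CPM on chow and 20.4 to 43.9 CPM on WTD. Of the 5 Kupffer cell markers 2 were higher, Cd5l by 8.67-fold and Vsig4 by 2.07-fold. Clec4f, Timd4 and Marco, with log2 fold changes of 0.24, 0.69 and 1.79, did not pass. The summed level of the 5 was 224 to 450 CPM on chow, 884 to 2339 CPM on WTD and 825 to 1449 CPM with atorvastatin. Such a sum is led by its most abundant markers. Of the 5 stellate cell markers 2 were higher, Dcn and Pdgfrb, with a summed level of 283 to 486 CPM on chow, 549 to 879 CPM on WTD and 555 to 746 CPM with atorvastatin. Of the 4 sinusoidal endothelial markers Lyve1 was higher and Clec4g lower, and their sums overlapped, at 173 to 267, 142 to 231 and 154 to 234 CPM. All 4 cholangiocyte markers were higher and all 4 hepatocyte markers lower. None of the 6 T or NK cell and 4 B cell markers passed. Of all tested genes 33.5% passed, 17.5% higher and 16.0% lower. Against these shares, 2 of 5 markers says little about a cell type. The hepatocyte markers Alb, Apoa1, Ttr and Cps1 together took 46756 to 147104 CPM over all mice, so the defining markers of the labelled tissue were abundant in every mouse. The part of these cell types in the inflammasome changes was not tested beyond the relations between mice given next.

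Within each group, the level of each gene was set against the summed macrophage markers, both as log2 CPM, in 30 relations. Permutation p values of the 30 Pearson and of the 30 Spearman tests were adjusted as separate sets by the method of Benjamini and Hochberg. Pycard followed the macrophage markers in WTD mice (n = 16, Pearson r = 0.75, permutation adjusted p = 0.027, and Spearman rho = 0.591, permutation adjusted p = 0.18). It also did so in WTD + atorvastatin mice (n = 16, r = 0.76, permutation adjusted p = 0.016, and rho = 0.874, permutation adjusted p = 0.0006). Without the 2 mice farthest from the median of the markers, r was 0.6 and 0.794 in these groups. On chow the relation of Pycard was not positive (n = 10, r = -0.623, permutation adjusted p = 0.2). Aim2 in WTD + atorvastatin mice had r = 0.624 (n = 16, permutation adjusted p = 0.083) and rho = 0.759 (permutation adjusted p = 0.016), and r was 0.538 without the 2 farthest mice. In WTD mice the r of Aim2 was -0.191 (n = 16, permutation adjusted p = 0.77). No other relation passed 0.05 by either measure after adjustment. For Nlrp3, r was -0.074 in WTD mice, or 0.26 without the sparse libraries, and 0.089 in WTD + atorvastatin mice. For Casp1 it was 0.153 and 0.11. On chow (n = 10) r was higher, at 0.723 for Nlrp3 (permutation p = 0.021, adjusted p = 0.11) and 0.742 for Casp1 (permutation p = 0.014, adjusted p = 0.083). These chow values fell to 0.611 and 0.43 without the 2 farthest mice and to 0.356 and 0.412 without the sparse libraries. Whether a relation differed between groups was not tested.

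**Figure D3:**
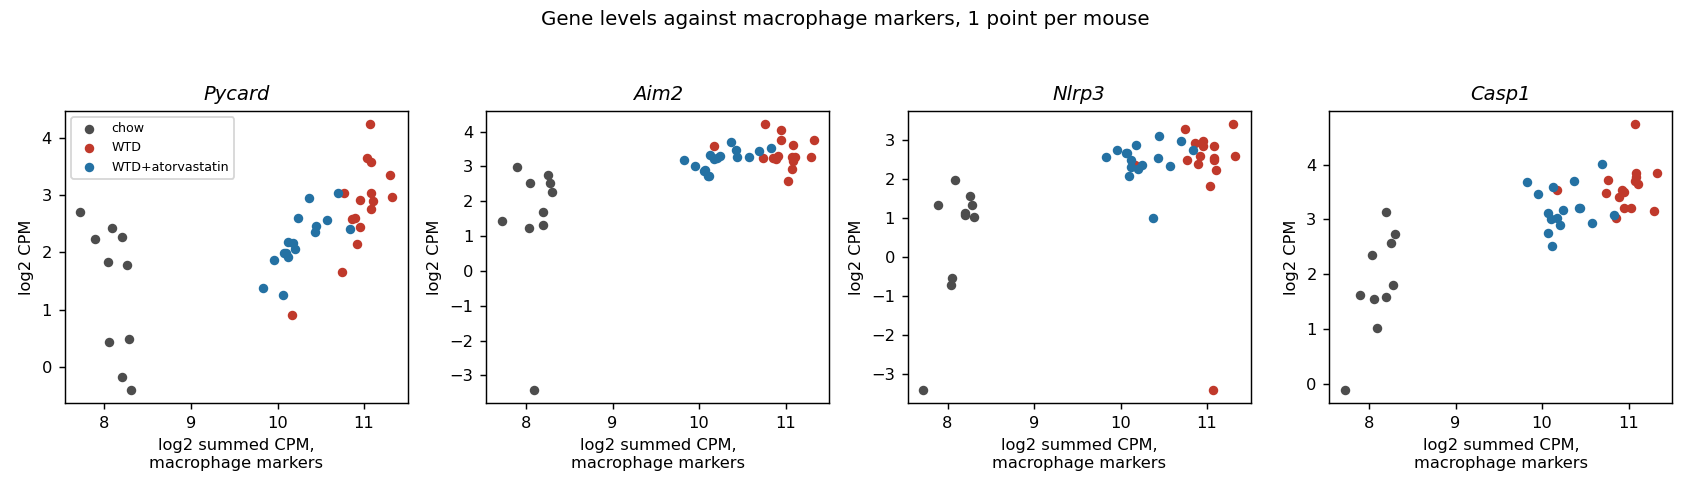
Log2 CPM of Pycard, Aim2, Nlrp3 and Casp1 (y axes) against log2 of the summed CPM of the macrophage markers (x axes), 1 point per mouse, coloured by group. Within the WTD groups Pycard rises with the markers (r = 0.75 and 0.76), while Nlrp3 (r = -0.074 and 0.089) and Casp1 (0.153 and 0.11) have values nearer 0 there.

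Atorvastatin-treated mice were then compared with untreated WTD mice, the same 16 that entered the first comparison. None of the 10 genes passed, where 7.1% of all tested genes did. Casp4 and Pycard had the lowest fitted ratios, 0.678 and 0.608 of the WTD level, and Nlrp3, Aim2, Gsdmd, Nek7 and Casp8 had ratios between 0.846 and 1.07. In edgeR's quasi-likelihood test 2 genes, Casp4 and Pycard, had an unadjusted p under 0.05, against 24.5% of all genes. DESeq2 called 1, Casp4, and 1400 of 13310 genes in all. Limma-voom called 2, Casp1 and Casp4, and 3145 of 15574 genes in all. Log2 fold changes were negative for 8 genes and positive for Casp8 and Nlrc4, though the sign of Gsdmd, Nlrc4 and Nlrp3 turned under 1 alternative each.

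Casp4 ranged from 5.37 over 12.5 to 23.4 CPM on WTD and from 5.78 over 8.73 to 12.7 CPM with atorvastatin. The lowest mice were alike in both groups, but 1 of 16 treated mice exceeded the WTD median. The log2 fold change was -0.56 (SE 0.18, 95% interval -0.92 to -0.20), and with an adjusted p of 0.027 it missed the threshold. It passed when WTD replicate 15, the lowest WTD mouse, was left out (-0.62, adjusted p = 0.008). Over 12 alternatives adjusted p ranged from 0.00024 to 0.051. Pycard ranged from 1.78 over 7.38 to 18.8 CPM on WTD and from 2.30 over 4.41 to 8.07 CPM with atorvastatin, with 2 of 16 treated mice above the WTD median. Its log2 fold change was -0.72 (SE 0.27, 95% interval -1.25 to -0.18, adjusted p = 0.068). The 3 WTD mice with the highest Pycard had sparse libraries, and without such libraries the value was -0.40 (adjusted p = 0.33). Between the same groups 4 of 7 macrophage markers were lower with atorvastatin, with a median log2 fold change of -0.46, where 7.1% of all genes passed in either direction. Of the hepatocyte markers 3 of 4 were higher with treatment, Alb by 0.63, Cps1 by 0.70 and Ttr by 0.47 on the log2 scale. Of the Kupffer cell markers Clec4f was higher (0.62) and Cd5l lower (-0.39), and the other 3 did not pass. Of the stellate cell markers Dcn (-0.26) and Pdgfrb (-0.61) were lower and Reln (0.47) was higher, and of the sinusoidal endothelial markers Clec4g was higher (0.59). None of the 4 cholangiocyte markers passed, with a median log2 fold change of -0.56. Nor did any of the 4 tested neutrophil (median -0.42), 6 T or NK cell (-0.34) and 4 B cell markers (-0.05). The part of these cell types in the values of Casp4 and Pycard was not tested beyond the relations above.

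Casp1 went from a median of 11.5 CPM on WTD to 8.73 CPM with atorvastatin (range 5.64 to 16.0 CPM), and 6 of 16 treated mice lay under the lowest WTD mouse. Its log2 fold change was -0.38 with a 95% interval of -0.77 to 0.00 (adjusted p = 0.21). Nlrp3 had nearly the same median with treatment, 5.79 CPM (range 1.91 to 8.53 CPM), as on WTD alone, 5.85 CPM. The interval of its log2 fold change of -0.07 ran from -0.73 to 0.58, which holds 0 and does not show that the groups were alike. Aim2 had a median of 9.42 CPM (range 6.46 to 12.9 CPM) and a log2 fold change of -0.24 (95% interval -0.71 to 0.23). Gsdmd was measured most narrowly, with 51.8 to 69.8 CPM in treated mice and a log2 fold change of -0.03 (95% interval -0.15 to 0.10). Nek7 had -0.09 (95% interval -0.26 to 0.07), Casp8 0.10 (-0.10 to 0.31) and Nlrc4 0.12 (-0.67 to 0.92). Txnip ranged from 78.5 over 107 to 133 CPM with treatment, with a log2 fold change of -0.17 (95% interval -0.34 to 0.00).

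Against chow, 5 of the 10 genes were still higher in WTD + atorvastatin mice, where 25.0% of all tested genes passed and 14.2% were higher. They were Nlrp3 with a log2 fold change of 1.62 (SE 0.40), Casp1 with 1.21 (SE 0.23), Aim2 with 1.17 (SE 0.28), Casp4 with 0.76 (SE 0.21) and Gsdmd with 0.25 (SE 0.07). Adjusted p lay between 3.1e-05 for Casp1 and 0.0054 for Gsdmd. Of 16 treated mice, 15 had more Nlrp3 than any chow mouse, and 12 had more Aim2. For Casp1 this held for 8 mice, and for Casp4 for 4. Pycard was at 0.58 (95% interval -0.05 to 1.20, adjusted p = 0.15), but at 1.01 (adjusted p = 0.011) without the sparse libraries, and adjusted p ranged from 0.0039 to 0.18 over 12 alternatives. Gsdmd did not pass without the sparse libraries (0.21, adjusted p = 0.03), nor when chow replicate 1, 2 or 7 was left out (0.22 to 0.24). Nlrp3 did not pass when each library's share of missed weak genes was a covariate (1.31, adjusted p = 0.024), and Nlrc4, at 1.19 (adjusted p = 0.046), passed without the sparse libraries (1.18, adjusted p = 0.00066). Nek7, Casp8 and Txnip had log2 fold changes of 0.07, 0.06 and 0.12.

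Other genes of the pathway were taken from 8 lists with 74 genes, of which 62 could be tested. On WTD 25 were higher and 11 lower than on chow, where 17.5% of all tested genes were higher and 16.0% lower, and the median log2 fold change was 0.45 for the 62 genes against 0.03 for all. With atorvastatin 3 were higher and 1 lower than on WTD, about the 7.1% of all tested genes that passed there. Against chow the treated mice had 26 higher, where 14.2% of all tested genes were, and 9 lower, where 1674 of 15574 were. Without the sparse libraries these counts were 27 and 11, 3 and 1, and 24 and 9. The 3 higher with atorvastatin were then not the same genes, since Mlxipl no longer passed and Gbp7, a guanylate-binding protein, did (0.34, adjusted p = 0.069 with all mice, and 0.48, adjusted p = 0.0089 without those libraries). In the list of other gasdermins and membrane rupture 2 of 10 genes were tested, and neither Gsdme (0.14) nor Ninj1 (-0.13), which drives the final rupture of the membrane, passed between WTD and chow. Between treated mice and chow Ninj1 fell by 0.19 on the log2 scale (SE 0.06, adjusted p = 0.0051).

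Upstream of NLRP3, 6 of 11 genes were higher on WTD and none lower, against 17.5% higher among all tested genes. Tlr4, the lipopolysaccharide receptor that primes the pathway, went from 3.39 ± 1.58 CPM on chow (SD, n = 10) to 13.8 ± 4.25 CPM on WTD (SD, n = 16), a log2 fold change of 2.02 (SE 0.27). Nfkb1, a subunit of the priming factor NF-kappaB, rose by 0.58 (SE 0.08) and P2rx7, the ATP receptor that triggers NLRP3, by 1.68 (SE 0.21). Ctsb, the lysosomal protease cathepsin B, rose from 800.3 to 1764 CPM, or by 1.14 (SE 0.06). In edgeR's test it was the 1 gene of the 62 that passed as lower with atorvastatin, by 0.28 on the log2 scale (SE 0.05, adjusted p = 0.00023). That count depended on the method. DESeq2 called 3 list genes higher and 3 lower of 72, where 688 of 13310 genes were lower. Limma-voom called 8 higher and 4 lower of 62, where 1310 of 15574 genes were lower. Tlr4 at -0.48 (SE 0.22, adjusted p = 0.16) and Nfkb1 at -0.12 (SE 0.07, adjusted p = 0.32) did not pass between treated and untreated WTD mice.

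The 7 cytokines, receptors and antagonists did not move together, with 4 higher and 1 lower on WTD, where 33.5% of all tested genes passed. Il1a, which encodes interleukin-1 alpha and was picked out after its values were seen, rose by 1.34 (SE 0.27, adjusted p = 6.1e-05). Il1b had a mean of 4.64 ± 2.40 CPM on chow (SD, n = 10), 6.48 ± 3.83 CPM on WTD and 7.05 CPM with atorvastatin, and its log2 fold change on WTD of 0.48 did not pass (SE 0.37, adjusted p = 0.29). Il18 fell by 0.66 on the log2 scale on WTD (SE 0.19, adjusted p = 0.0032), from 17.6 ± 5.39 to 11.2 ± 3.78 CPM. With atorvastatin it stood at 16.0 CPM, a log2 difference of 0.52 from WTD that did not pass (adjusted p = 0.029). Antagonists rose on WTD, namely Il18bp, which binds interleukin-18, from 13.7 to 57.6 CPM (log2 fold change 2.07, SE 0.11), and Il1rn, the interleukin-1 receptor antagonist, from 5.59 to 34.0 CPM (2.61, SE 0.29).

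Among 14 tested sensors and sensor partners outside the 10 genes, 6 were higher and 2 lower on WTD, against 17.5% higher and 16.0% lower among all tested genes. Ifi204, a DNA sensor, rose from 12.8 to 33.9 CPM (log2 fold change 1.41, SE 0.11). Nlrp6, a sensor best known from gut epithelium, went the other way, from 367 ± 38.1 CPM on chow to 140 ± 30.5 CPM on WTD (log2 fold change -1.39, SE 0.12). It was higher with atorvastatin than on WTD, at 208 CPM (log2 fold change 0.57, SE 0.11, adjusted p = 0.00017 against WTD). Naip2, a partner of NLRC4, was higher in treated mice than on chow by 1.38 (SE 0.15). Its mean was 8.02 CPM on chow, 23.6 CPM on WTD and 20.9 CPM with atorvastatin.

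Of the other caspases 2 of 6 were higher on WTD and none lower, near the 33.5% of all tested genes that passed in either direction. They were Casp12 with 1.93 (SE 0.23) and Casp2 with 0.91 (SE 0.18). With atorvastatin Casp12 had a log2 fold change of -0.59 against WTD, which did not pass (adjusted p = 0.023). In the list around caspase-8 and necroptosis, 2 of 8 genes were higher and 2 lower on WTD, where the shares of all tested genes were 17.5% and 16.0%. Mlkl, the executor of necroptosis, rose by 1.01 (SE 0.14). Cflar, which encodes the caspase-8 inhibitor c-FLIP, fell from 113 to 71.4 CPM, by 0.66 on the log2 scale (SE 0.08), and was higher with atorvastatin by 0.28 (SE 0.07, adjusted p = 0.0034). Tnfrsf1a, a tumour necrosis factor receptor, was higher than on chow by 0.59 on WTD (SE 0.11) and by 0.58 in treated mice (SE 0.11).

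Among genes that restrain inflammasomes or NF-kappaB, 3 of 5 tested were higher and 1 lower on WTD, where 33.5% of all tested genes passed. Tnfaip3, which encodes A20, had the largest change, from 3.01 to 26.1 CPM (log2 fold change 3.12, SE 0.30), and was at 15.8 CPM with atorvastatin (-0.72 against WTD, adjusted p = 0.027, not passing). Trim30a rose by 1.10 (SE 0.12). Serpinb1a, an inhibitor of inflammatory caspases, fell from 72.4 CPM on chow to 28.2 CPM on WTD (log2 fold change -1.36, SE 0.22). In treated mice it stood at 20.5 CPM, with a log2 fold change of -1.82 (SE 0.22) against chow. Its difference from WTD, -0.46, did not pass (adjusted p = 0.12).

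The thioredoxin list, which holds the relatives and partners of Txnip, had 5 genes lower and 2 higher of 9 on WTD, where 16.0% of all tested genes were lower and 17.5% higher. Txn2, the mitochondrial thioredoxin, fell by 0.59 (SE 0.07). Mlxipl, which encodes the carbohydrate response factor ChREBP, fell from 829.1 to 403 CPM, by 1.04 on the log2 scale (SE 0.13). It was higher with atorvastatin, at 592 CPM (log2 fold change 0.56, SE 0.12, adjusted p = 0.00069), which did not pass without the sparse libraries (0.50, adjusted p = 0.012). Txnrd1, a thioredoxin reductase, was higher in treated mice than on chow by 0.63 (SE 0.11). Its mean was 153 CPM on chow, 217 CPM on WTD and 236 CPM with atorvastatin.

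**Figure D4:**
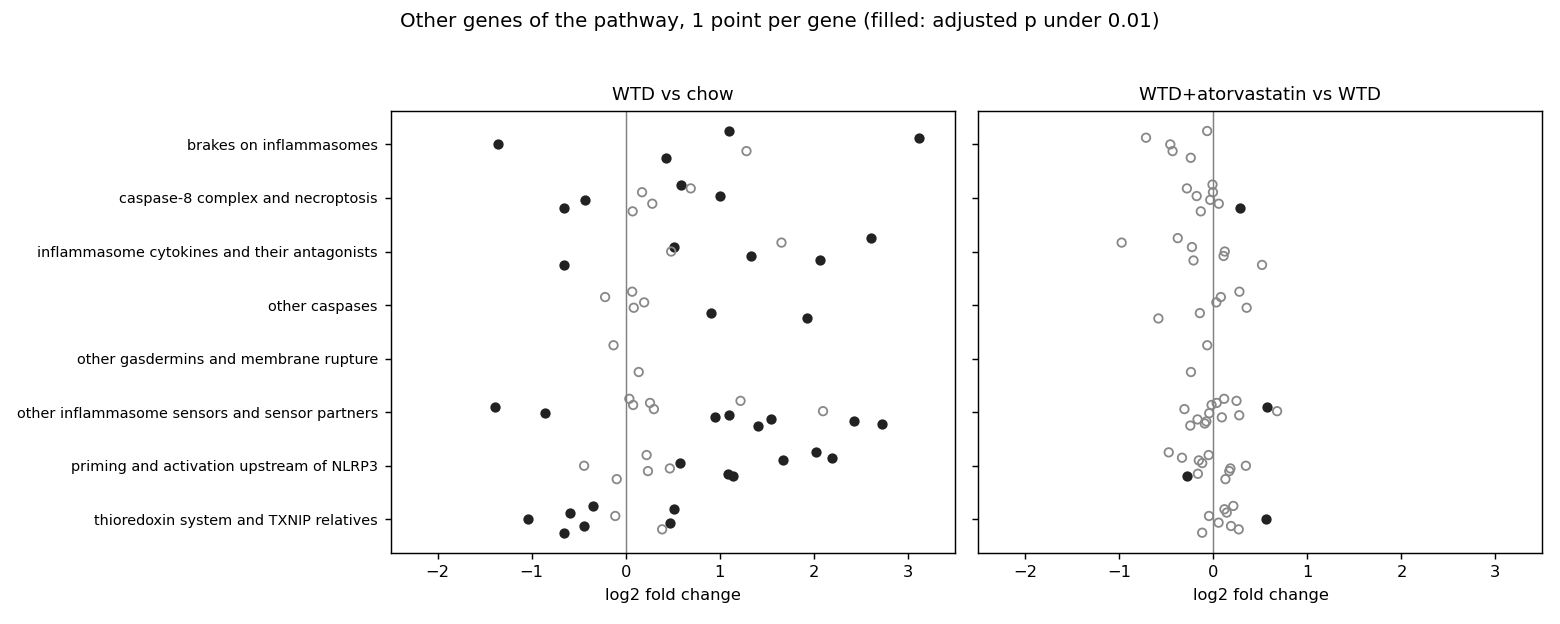
Log2 fold changes (x axes) of the 62 tested genes of the 8 pathway lists (rows), 1 point per gene, for WTD vs chow and WTD + atorvastatin vs WTD; filled points have an adjusted p under 0.01. On WTD 25 genes lie filled to the right and 11 to the left, and with atorvastatin 3 to the right and 1 to the left.

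After the mean of each group was subtracted, the 10 genes did not vary as a unit between the 42 mice, sparse libraries included. Over their 45 pairs the median Pearson r of log2 CPM in 42 mice was -0.005, and 21 pairs were positive. Pycard and Casp4 had an r of 0.453, which was 0.504 in the 34 mice without sparse libraries. Nlrp3 and Casp8 had the highest r, 0.66, which was 0.386 without those libraries. Other pairs moved in either direction without them. Casp1 and Casp4 went from 0.137 to 0.503, and Casp4 and Nlrc4 from -0.103 to 0.465. Aim2 and Nlrc4 went from 0.537 to 0.201, and Nek7 and Nlrc4 from 0.304 to -0.098. The genes most like a member by the same measure are given as a description. For Casp4 they were the cholangiocyte marker Epcam (r = 0.649, and 0.691 without the sparse libraries), Runx1 (0.636 and 0.612) and Il27ra (0.633 and 0.548). For Pycard they were the ribosomal protein genes Rpl17 (0.711 and 0.632) and Rplp1 (0.685 and 0.636) and Tmsb10 (0.694 and 0.658), and for Gsdmd the phosphatase gene Acp5 led (0.576 and 0.578). For Txnip they included its relative Arrdc3, also an arrestin-domain gene (0.573 and 0.612). Nek7 was most like Enc1 (0.685 and 0.566). The closest partners of the weaker sensors rested on the sparse libraries: Nlrp3 and Orc2 had an r of 0.879 that was 0.308 without them, Aim2 and Efemp2 went from 0.902 to 0.459, and Nlrc4 and B4galt4 from 0.867 to -0.251. Casp1 with Lpp (0.76 and 0.435) and Casp8 with Ddhd2 (0.804 and 0.298) also lost much of their likeness.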

How the data were processed

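Poly(A) RNA from the 42 livers had been made into strand-specific libraries and sequenced as pairs. Per the submitters' processing notes, Trimmomatic, STAR 2.5, HTSeq 0.6.1p1, DESeq2 and the build GRCm38 were used. The authors deposited raw counts of read pairs per gene, with no normalization. Read pairs in no gene (2.28%), ambiguous ones (5.96%) and multiple alignments (4.68%) stayed out of totals and tests. Symbols and exon lengths came from GENCODE vM21, which held 54409 of 54446 identifiers. The depth, 15661381 to 36224054 counts per mouse, leaves the counting error largest for the weakest genes, Nlrp3 and Nlrc4.

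Genes passing filterByExpr (minimum count 10, total 15) were fitted with TMM scaling by edgeR 4.0.16's robust quasi-likelihood test in R 4.3.3, with all 42 mice in 1 model of 3 groups and no covariate. Adjusted p under 0.01 (Benjamini-Hochberg, 15574 genes) counted as passing. Intervals are 95%. Relations used two-sided tests with 100000 permutations. Alternatives included limma 3.58.1 (voom), DESeq2 1.42.0, other scalings, filters and each mouse left out. The methods were tested on simulated data. Each mouse is a separate animal, and the labels give no batch.

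The 10 genes and all lists were chosen with earlier results of these data known. Named were the 10 genes, the 2 genes of each pathway list with the smallest p in each comparison, Il1b, Il18, Tlr4, Nfkb1 and Ctsb, and the 3 genes most like each member, of which some are printed. A gene that the rule takes is not reported here. The library limit of 15%, and values of ranges, likeness and list counts without the sparse libraries, were added after seeing the data. Protein levels and histology were not analysed here.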

Additional observations from a re-analysis of the deposited data

How the results depend on the processing

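The 6 genes called between WTD and chow became 5 to 7 under 13 alternatives and 6 to 7 when each mouse was left out. Between WTD + atorvastatin and WTD the count of 0 became 1 when only the 2 groups were fitted, 1 without libraries that missed over 15% of weak genes, 1 with DESeq2, 1 at an adjusted p under 0.05 and 2 with limma-voom. In the same order, these settings called 1361 of 14595, 1664 of 15799, 1400 of 13310, 2021 of 15574 and 3145 of 15574 genes. Leaving out single mice gave 0 to 1, the 1 being Casp4 without WTD replicate 15. Between WTD + atorvastatin and chow, 5 became 3 to 6 under 13 alternatives, with 3 when at least 10 counts were required in every mouse, where 7 of the 10 genes could be tested, 4 with upper-quartile normalization and with the covariate, and 6 without libraries that missed over 15% of weak genes, with limma-voom and at an adjusted p under 0.05. It was 4 to 5 without single mice. The cause of the other changes was not tested.

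The signs that turned were of values near 0. Casp8 on WTD became 0.0094 with at least 10 counts in every mouse, 0.0204 without chow replicate 1 and 0.0698 without chow replicate 5 (range without single mice -0.1246 to 0.0698). Against chow, Casp8 in treated mice became -0.0165 with the covariate, -0.0206 without chow replicate 2 and -0.0036 without chow replicate 6 (range -0.0206 to 0.1735). Between treated and untreated WTD mice, Nlrp3 became 0.0019 without WTD replicate 11 (range -0.1645 to 0.0019), and with limma-voom Gsdmd became 0.0385 and Nlrc4 -0.0479. Txnip also passed on WTD without chow replicate 3, 4 or 9 or WTD replicate 3. RLE normalization split the genes called with atorvastatin into 582 higher and 479 lower, against 754 and 352 with TMM.

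No paired analysis was possible because each mouse is in 1 group and the mouse numbers in the labels name different animals. Counting error is largest for Nlrp3 and Nlrc4, whose counts per mouse ranged from 0 to 273 and from 0 to 183. The mice at 0 all had sparse libraries.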
